A study of Mus musculus with 4 samples.

Results

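The pentose phosphate pathway was followed through the mRNAs of its 8 enzymes, G6pdx, H6pd, Pgls, Pgd, Rpia, Rpe, Tkt and Taldo1, which were chosen by name among 55401 gene IDs of the deposited table. All 8 were found, and all 8 passed the filter on low counts, as did 13916 genes in all. RNA was sequenced from ZBTB21-degron mouse embryonic stem cells (mESCs), in which both copies of the gene for ZBTB21, a BTB zinc finger transcription factor, carry a mAID-GFP tag at the C-terminus in an OsTIR1 line. OsTIR1 is the plant receptor that, once the auxin IAA is present, has tagged proteins destroyed. There were 2 libraries of untreated cells and 2 of degron cells, the latter given 1 µg/ml doxycycline over 24 h, followed by 500 µM IAA over another 24 h. Whether doxycycline was also given to the untreated cells is not in the labels, and no library of untagged cells with these additions was analysed here, so ZBTB21 loss and the additions cannot be told apart. Both groups grew with LIF, the GSK3 inhibitor CHIR99021, the MEK inhibitor PD0325901 and added nucleosides. The tagged line was a selected clone, and the labels do not say whether replicates were separate cultures. The p-values here thus reflect spread among the 4 libraries alone, and that spread may be technical. The edgeR test pools information on spread across tested genes, so its p-values and intervals rest only in part on each gene's own replicates. In such bulk RNA, fewer cells of a type and less RNA per cell cannot be told apart.

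The pathway has a pair of branches. The oxidative branch turns glucose 6-phosphate into ribulose 5-phosphate, releases carbon dioxide, and reduces NADP+ to NADPH, which cells use for lipid, deoxynucleotide and proline synthesis and to keep glutathione and thioredoxin reduced. The non-oxidative branch interconverts sugar phosphates, so that ribose 5-phosphate for nucleotides can be made from, or returned to, the glycolytic intermediates fructose 6-phosphate and glyceraldehyde 3-phosphate. Fast-dividing cells such as mESCs draw on both products.

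Library totals ranged from 8344408 to 10604451 counts. The mRNA of the targeted gene, Zbtb21, stood at 61.7 and 56.9 CPM (count per megaread of the scaled library) when untreated and at 130 and 133 CPM with the degron. This mRNA was called higher, by 1.14 on the log2 scale (edgeR adjusted p = 2.66e-26). Since the degradation acts on the tagged protein and not on the message, these values are no check of the labels. All 9 markers of embryonic stem cells passed the filter and summed to 5709 to 6171 CPM per library, with 4 called higher (Klf4 by 0.72 on the log2 scale) and 2, Sox2 and Nanog, called lower. Over all tested genes 22.2% were called higher and 21.6% lower. The 8 fibroblast feeder markers summed to 18.0 to 19.9 CPM, with Postn, Dcn and Lum at 0 counts in every library. Within that sum Thy1 went from 9.05 to 2.65 CPM and was called lower, and Pdgfrb went from 8.70 to 14.4 CPM and was called higher. The 6 primitive endoderm markers summed to 10.4 CPM in each untreated library and to 15.8 and 15.2 CPM with the degron. Of these Gata4 (6.55 to 9.83 CPM) was called higher and none was called lower. Neural markers (5 genes) went from 171 and 169 to 135 and 134 CPM. Most of this was Nes (88.0 to 67.8 CPM) and Tubb3 (67.7 to 54.7 CPM), which were called lower, as was Map2. Sox1 was not called, and Pax6 was below the filter. Trophoblast markers (5 genes) went from 130 and 125 to 136 and 139 CPM. Nearly all of this was Tfap2c (79.7 to 80.7 CPM, not called) and Krt8 (47.4 to 55.7 CPM, called higher). Cdx2, Elf5 and Hand1 were below the filter. Such sums do not show that these other cell types were present, and their part in the results below was not tested.

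After ZBTB21 depletion 4 of the 8 enzymes were called, all with modest fold changes. H6pd, the dehydrogenase of the endoplasmic reticulum lumen, rose 1.29-fold. Tkt, Taldo1 and Pgd fell to 0.822, 0.853 and 0.910 of their untreated levels, whereas G6pdx, Pgls, Rpia and Rpe were not called. The members called were thus 1 higher and 3 lower of 8, where 43.8% of all tested genes were called, 22.2% higher and 21.6% lower (edgeR quasi-likelihood test, Benjamini-Hochberg adjusted p under 0.05 over all tested genes). With DESeq2, the tool of the study, 1 member was higher and 2 lower, the call of Pgd being absent (adjusted p = 0.153), against 22.0% of 13295 genes called. The size of the change had a median of 0.13 on the log2 scale over the members, taken without sign, against 0.24 over all tested genes. The signed medians were -0.08 and 0.01. The groups did not overlap for 6 of the 8 members, of which H6pd and Pgls were higher and Pgd, Rpia, Tkt and Taldo1 lower in both degron libraries. Among all tested genes 70.6% did not overlap, 36.3% being higher and 34.4% lower in degron cells.

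**Figure D1:**
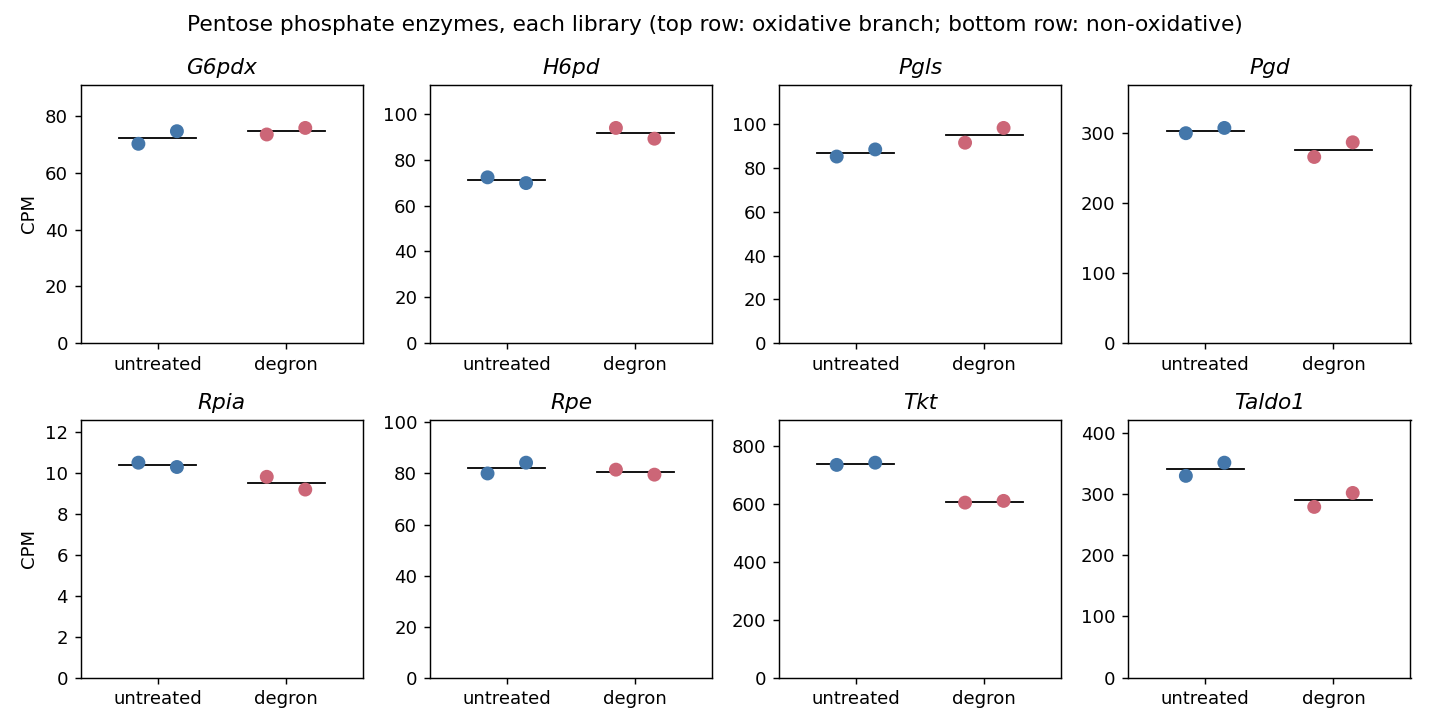
Level of each enzyme mRNA in CPM (vertical axes from 0, a scale for each gene) in the 2 untreated and 2 degron libraries, with points for libraries and lines for group means. The groups are apart for H6pd (72.4 and 69.9 against 94.0 and 89.3 CPM) and Tkt (736 and 744 against 605 and 611 CPM) and overlap for G6pdx and Rpe.

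Stretches of promoter are shown for the 3 enzymes that were called lower and for G6pdx, which was not called, so that the letters next to each start can be set beside the changes. Each is the 120 bases before the gene's start in RefSeq (GRCm38.p6), 5′ to 3′ on the gene's strand. Capitals mark GGGCGG (the Sp1 box), CCAAT (the CCAAT box) and TGACNNNGC (the antioxidant response element), on either strand.
Tkt, chr14:30549011-30549130, plus strand: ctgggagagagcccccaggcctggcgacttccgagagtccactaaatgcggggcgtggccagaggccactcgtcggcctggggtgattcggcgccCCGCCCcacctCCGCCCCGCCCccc
Taldo1, chr7:141392040-141392159, plus strand: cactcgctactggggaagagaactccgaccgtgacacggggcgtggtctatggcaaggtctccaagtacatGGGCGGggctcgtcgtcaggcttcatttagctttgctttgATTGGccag
Pgd, chr4:149166706-149166825, minus strand: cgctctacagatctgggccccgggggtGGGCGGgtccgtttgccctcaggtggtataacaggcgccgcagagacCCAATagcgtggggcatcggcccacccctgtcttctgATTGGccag
G6pdx, chrX:74428881-74429000, minus strand: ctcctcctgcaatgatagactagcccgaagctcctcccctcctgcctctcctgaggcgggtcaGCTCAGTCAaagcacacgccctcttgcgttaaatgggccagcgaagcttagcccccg
RefSeq places the start of Tkt 772 bases and that of G6pdx 314 bases inside the GENCODE gene. Over full windows of 300 bases around the start, GGGCGG was found for 7 of the 8 enzymes, once each in Taldo1, Pgd, G6pdx, Pgls and Rpia, at 2 places in Rpe and at 5 places in Tkt, some of which overlap. Of all 32851 mouse promoter windows, 35.7% held it, and the median GC content over all windows was 52.7%. These windows cover 27025 genes, some with alternative starts, whereas 13916 genes passed the filter here. The shares over all windows are thus no matched background for expressed genes. H6pd was the enzyme without GGGCGG, with a GC content of 39.3% in its window against 56.7% to 67.3% in the others. Its RefSeq start lies 5787 bases inside the GENCODE gene, so this window may not be the promoter in use. CCAAT, a motif searched after the sequences had been seen, was found for 4 enzymes (Taldo1, Pgd, Rpe and H6pd) and in 37.4% of all windows. Both Pgd and Taldo1 carry it on the reverse strand close to the start. The antioxidant response element was found in the window of G6pdx and of no other enzyme (12.4% of all windows), and in a further window at an alternative start of Pgd. ACGTG, the core of the hypoxia response element, was found in the G6pdx window alone (19.6% of all windows). CACGTG, the E-box, which contains ACGTG, and TATAAA, the TATA box, were found in none of the 8 (7.15% and 13.6% of all windows).

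Glucose 6-phosphate dehydrogenase makes the committed step of the oxidative branch, and the mouse has a pair of main genes for it. G6pdx (ENSMUSG00000031400.10, chromosome X, 74409483 to 74429194, minus strand, mm10) encodes the cytosolic enzyme. G6pdx stood at 70.3 and 74.8 CPM without depletion and at 73.6 and 76.0 CPM with it. The libraries of the groups overlapped, and the log2 fold change was 0.04 ± 0.07 (SE, edgeR adjusted p = 0.614), with a 95% interval from 0.941 to 1.13-fold. The interval does not cover the uncertain placing of reads described next, so a larger change of the G6pdx mRNA is not excluded. G6pd2, a copy of G6pdx on an autosome, had 0 counts in all 4 libraries. The longest open reading frames of both are 94.8% identical over 1542 aligned bases, so reads that fit both could be lost or placed in G6pdx, and the handling of such reads is not given in the sources used here. G6pdx also shares 418 of its 3080 exonic bases with Ikbkg on the opposite strand. Nor is it given whether counting used strand, so part of the G6pdx signal could be of Ikbkg, which averaged 32.0 CPM before and 33.0 CPM after depletion.

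H6pd (ENSMUSG00000028980.14, chromosome 4, 149979475 to 150009023, minus strand) encodes hexose 6-phosphate dehydrogenase, which carries out the dehydrogenase and lactonase steps inside the endoplasmic reticulum and keeps a separate pool of NADPH there. H6pd stood at 72.4 and 69.9 CPM without depletion and at 94.0 and 89.3 CPM with it. Both degron libraries were above both untreated ones, and the difference was larger than the spread within either group. Its log2 change, 0.37 ± 0.06 (SE, edgeR adjusted p = 2.07e-06), was exceeded in size by 34.0% of tested genes. The call was made under each of the 12 other settings tried, with adjusted p from 7.31e-09 to 0.00485.

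The partners of H6pd in the lumen were looked at from a short list. G6pc3, a glucose 6-phosphatase of this membrane, rose from a mean of 17.1 ± 0.371 to 25.4 ± 2.27 CPM (SD, n = 2), and its edgeR log2 change was 0.57 ± 0.12 (SE, adjusted p = 3.75e-05). Slc37a4, the carrier that brings glucose 6-phosphate into the lumen, averaged 8.81 and 10.2 CPM and was not called (log2 change 0.21 ± 0.17, SE, edgeR adjusted p = 0.337). Hsd11b1, the reductase that is the known user of the lumenal NADPH in liver and fat, had 0 counts in all 4 libraries.

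The next steps of the oxidative branch were carried by Pgls and Pgd. Pgls (ENSMUSG00000031807.10, chromosome 8, 71592176 to 71601092, plus strand) encodes 6-phosphogluconolactonase, which opens the lactone. Pgls stood at 85.3 and 88.6 CPM without depletion and at 91.6 and 98.4 CPM with it. Both degron libraries were above both untreated ones, but the log2 fold change of 0.13 ± 0.06 (SE) did not pass the test (edgeR adjusted p = 0.0875). With library sizes alone in place of TMM scaling it passed (adjusted p = 0.0357). Pgls shares 776 of its 3770 exonic bases with Fam129c on the same strand, which had 5.89 and 4.64 CPM and was not called.

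Pgd (ENSMUSG00000028961.15, chromosome 4, 149149991 to 149166771, minus strand) encodes 6-phosphogluconate dehydrogenase, which makes the second NADPH of the branch and ribulose 5-phosphate. Pgd stood at 299 and 307 CPM without depletion and at 265 and 286 CPM with it. Both degron libraries were below both untreated ones, and degron replicate 1 was the lower of the pair. The log2 fold change was -0.14 ± 0.05 (SE, edgeR adjusted p = 0.0336), a change exceeded in size by 69.1% of tested genes. The call was lost with DESeq2 (adjusted p = 0.153), and also without degron replicate 1 (-0.08, adjusted p = 0.487), without degron replicate 2 (adjusted p = 0.0560) and without untreated replicate 2 (adjusted p = 0.0989).

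**Figure D2:**
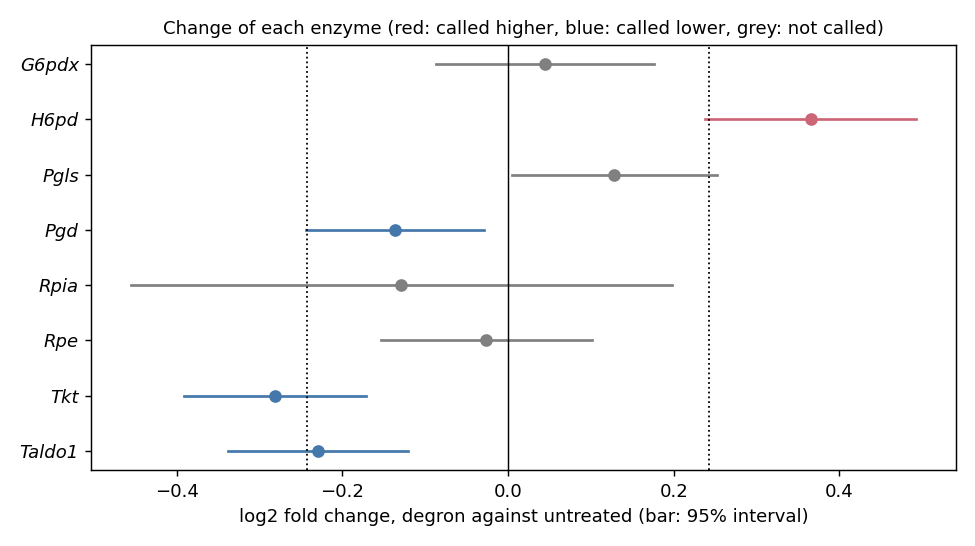
Log2 fold change of each enzyme mRNA in degron against untreated cells (points) with 95% intervals from the edgeR fit (bars), red for called higher, blue for called lower and grey for not called. Dotted lines mark the median size of change over all tested genes, 0.24 on either side of 0, and the points of H6pd (0.37) and Tkt (-0.28) lie outside them.

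Ribulose 5-phosphate is passed on by an isomerase and an epimerase. Rpia (ENSMUSG00000053604.5, chromosome 6, 70765720 to 70792232, minus strand), ribose 5-phosphate isomerase, makes the ribose 5-phosphate of nucleotides. It was the lowest member, with 111 and 95 counts in the untreated and 90 and 77 counts in the degron libraries, or 10.5 and 10.3 against 9.82 and 9.20 CPM. The degron libraries were below the untreated ones, and the log2 change, -0.13 ± 0.16 (SE, edgeR adjusted p = 0.554), had the widest interval of the 8, from 0.729 to 1.15-fold. A change as large as that of Tkt was not detectable for Rpia at this depth. Rpe (ENSMUSG00000026005.15, chromosome 1, 66700831 to 66719805, plus strand), ribulose 5-phosphate epimerase, makes xylulose 5-phosphate. Rpe stood at 80.0 and 84.2 CPM without depletion and at 81.5 and 79.5 CPM with it, which overlapped. The log2 fold change was -0.03 ± 0.06 (SE, edgeR adjusted p = 0.769, 95% interval 0.899 to 1.07-fold). Rpe shares 558 of its 3113 exonic bases with Kansl1l on the opposite strand, which rose from 6.71 to 9.94 CPM (edgeR adjusted p = 0.00781), so the value of Rpe is uncertain.

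Tkt and Taldo1 form the link with glycolysis. Tkt (ENSMUSG00000021957.7, chromosome 14, 30548359 to 30574720, plus strand), transketolase, moves 2-carbon units between sugar phosphates with thiamine diphosphate as cofactor, and had the most counts of the 8. Tkt stood at 736 and 744 CPM without depletion and at 605 and 611 CPM with it. The groups did not overlap. The spread was 5.44 and 4.22 CPM (SD, n = 2), which 2 libraries estimate poorly. The log2 fold change was -0.28 ± 0.06 (SE, edgeR adjusted p = 1.73e-05), a size exceeded by 44.3% of tested genes, and it was called under each of the 12 other settings (adjusted p at most 0.00966).

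Taldo1 (ENSMUSG00000025503.5, chromosome 7, 141392199 to 141402968, plus strand), transaldolase, moves 3-carbon units and completes the route back to fructose 6-phosphate. Taldo1 stood at 330 and 351 CPM without depletion and at 279 and 302 CPM with it. Both degron libraries were below both untreated ones, with a spread of 15.2 and 16.1 CPM (SD, n = 2) that was wider than that of Tkt. The log2 fold change was -0.23 ± 0.05 (SE, edgeR adjusted p = 0.000348). Without degron replicate 1 it was -0.17 and the call was lost (adjusted p = 0.0954).

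Tkt-like genes added almost nothing. Tktl1 had 13 and 8 counts in the untreated and 6 and 8 counts in the degron libraries, and Tktl2 had 10 and 9 against 6 and 6 counts, so neither passed the filter. Their longest open reading frames are 66.5% and 67.8% identical to that of Tkt.

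Ratios of counts within a library, which do not depend on how libraries are scaled, set the summed mRNA counts of the branches side by side. They are no measure of the activity of either branch. The summed counts of G6pdx, H6pd, Pgls and Pgd were 0.456 and 0.454 of those of Rpia, Rpe, Tkt and Taldo1 in the untreated libraries and 0.538 and 0.549 in the degron libraries. The groups did not overlap, and the mean log2 ratio rose by 0.26. The pooled SD between replicates was 0.0152 (n = 2 a group), a poor estimate from so few libraries. In scaled units the non-oxidative sum went from 1156 and 1189 CPM to 976 and 1002 CPM, whereas the oxidative sum was 527 and 540 CPM against 525 and 550 CPM. Tkt alone supplied most of the non-oxidative reads. The ratio of H6pd to G6pdx counts was 1.03 and 0.935 in the untreated and 1.28 and 1.18 in the degron libraries. H6pd has the longer exonic length, and per kilobase the mean ratio was 0.578 untreated and 0.722 with the degron. The level of the lumenal gene thus stayed below that of the cytosolic gene in both groups. The ratio of Tkt to Taldo1 counts was 2.23 and 2.12 in the untreated and 2.17 and 2.03 in the degron libraries and overlapped between the groups. The ratio of Pgd to G6pdx counts, which was added after the values had been seen, was 4.26 and 4.10 against 3.60 and 3.77. The ratios are given as values without a test. An exact permutation test of 2 libraries against 2 cannot give a two-sided p below 0.333.

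**Figure D3:**
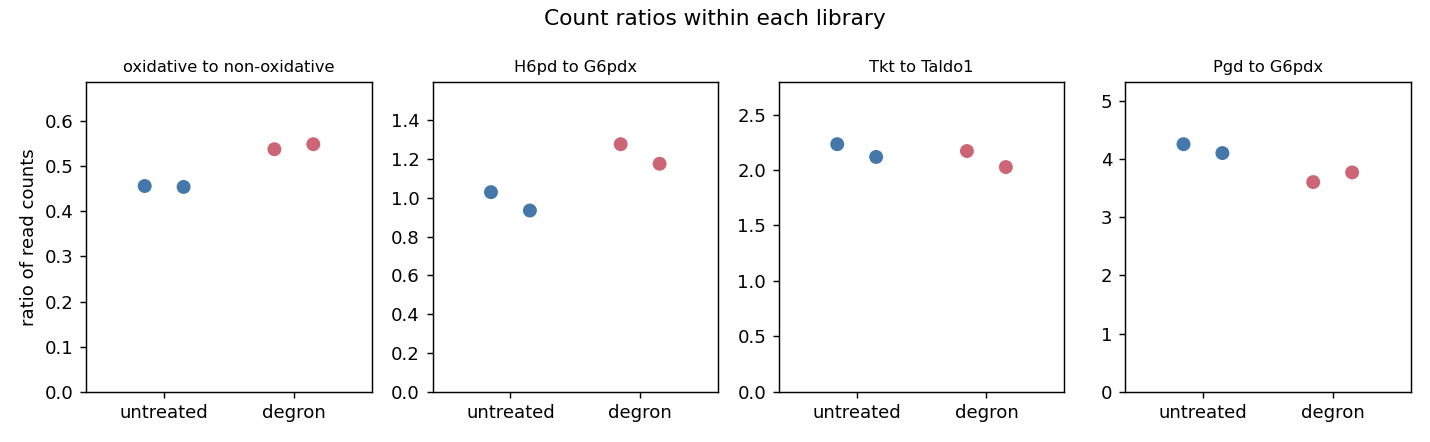
Ratios of read counts within each library (vertical axes from 0), with 1 point for each of the 2 untreated and 2 degron libraries. The oxidative to non-oxidative ratio is 0.456 and 0.454 in untreated and 0.538 and 0.549 in degron cells, while the Tkt to Taldo1 ratios of the groups overlap.

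Levels of different genes were compared per kilobase of exonic length. In untreated cells Taldo1 was highest at 157 ± 7.02 CPM per kilobase (SD, n = 2), followed by Tkt at 101 ± 0.739 and Pgd at 47.0 ± 0.823. Rpe, G6pdx and Pgls lay together at 26.4 ± 0.959, 23.6 ± 1.02 and 23.1 ± 0.611 CPM per kilobase, and the libraries of G6pdx and Pgls overlapped. H6pd at 13.6 ± 0.339 and Rpia at 1.94 ± 0.0279 CPM per kilobase were lowest. In degron cells the order was the same but for Pgls, at 25.2 ± 1.27, which stood above G6pdx, at 24.3 ± 0.531, with overlapping libraries. The exonic length counts every annotated exon and is 7.36 kb for Tkt, where the median protein-coding transcript has 2.42 kb. With median transcript lengths, a choice made after seeing the data, Tkt at 306 CPM per kilobase stood above Taldo1 at 263 in untreated cells, and Pgls at 97.3 stood above G6pdx at 37.2 and Rpe at 30.4. The places of Pgd, H6pd and Rpia in the order did not depend on this choice.

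Other genes of the pathway were taken from a list of 14, of which 10 passed the filter, 0 were called higher and 3 lower, beside 22.2% higher and 21.6% lower over all tested genes. All 3 encode phosphoribosyl pyrophosphate synthetases, which activate ribose 5-phosphate for purine, pyrimidine and NAD synthesis, or are named as like one. Prps1 had 2224 and 1991 counts in the untreated and 1224 and 1165 counts in the degron libraries, and fell from a mean of 213 ± 3.72 to 136 ± 3.96 CPM (SD, n = 2), and its edgeR log2 change was -0.65 ± 0.06 (SE, adjusted p = 1.24e-16). Prps2 fell from a mean of 24.8 ± 0.916 to 12.0 ± 0.118 CPM (SD, n = 2), or by 1.05 on the log2 scale. Both changes were larger in size than that of any of the 8 enzymes. Prps1l3, a Prps1-like gene, fell by 0.21 (edgeR adjusted p = 0.0169), and reads that fit both Prps1 and Prps1l3 could have been placed in either. The synthetase-associated genes Prpsap1 (0.08) and Prpsap2 (0.05) were not called. Neither were Dera (-0.09), a deoxyribose phosphate aldolase, Idnk (0.28), a gluconokinase, nor Shpk (0.74, edgeR adjusted p = 0.0960), the kinase of sedoheptulose, which had only 12 to 22 counts per library. Rbks, ribokinase, and Glyctk, glycerate kinase, were not called either. Rgn was below the filter, as were the copies of G6pdx and Tkt named above.

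Glycolytic enzymes that share metabolites with the pathway were lower in part. Of 13 genes in this list 12 passed the filter, 0 were called higher and 7 lower, beside 22.2% and 21.6% of all tested genes, with a median log2 fold change of -0.41 against -0.08 over the 8 enzymes and 0.01 over all tested genes. These genes had been seen to fall in earlier results of these data, so the count is not independent evidence. Pfkl, the liver-type subunit of phosphofructokinase, fell from a mean of 288 ± 3.77 to 108 ± 1.28 CPM (SD, n = 2). Tpi1, triose phosphate isomerase, which interconverts the 2 triose phosphates, fell by 1.15 on the log2 scale, and the aldolases Aldoc and Aldoa changed by -1.79 and -0.69. Gpi1, which makes fructose 6-phosphate from glucose 6-phosphate at the point where the pathway leaves glycolysis, fell from a mean of 820 ± 24.4 to 567 ± 0.179 CPM (SD, n = 2). Gpi1 is named beyond the rule for its place in the pathway, with values known, and it shares 741 of 6452 exonic bases with a noncoding gene on the opposite strand. Tigar, a phosphatase known to favour the oxidative branch by lowering fructose 2,6-bisphosphate, was not called (0.08, edgeR adjusted p = 0.292).

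Other enzymes were taken from a list of 11 genes named as NADPH producers, in which the cofactor preference of each enzyme was not checked. Of these 9 passed the filter, 4 were called higher and 3 lower, beside 22.2% and 21.6% of all tested genes, where calls were also near evenly divided. Aldh1l2, the mitochondrial formyltetrahydrofolate dehydrogenase, rose from a mean of 8.76 ± 1.66 to 33.3 ± 1.49 CPM (SD, n = 2), and its edgeR log2 change was 1.91 ± 0.13 (SE, adjusted p = 1.05e-21), although it shares 1056 of 7503 exonic bases with a gene on the opposite strand. Mthfd2, a mitochondrial folate dehydrogenase, rose by 0.64 on the log2 scale. Mthfd1, its cytosolic counterpart, fell by 0.41, and Me1, the cytosolic malic enzyme, rose by 0.27. Me1 averaged 103 CPM untreated and 124 CPM with the degron. Idh2 was called higher (0.224, edgeR adjusted p = 0.000342) and Me2 lower (-0.208, edgeR adjusted p = 0.00201). Idh1, an isocitrate dehydrogenase gene of this list, was called lower (-0.155, edgeR adjusted p = 0.0187), as was Mthfd1. The rise of Me1 was thus not shared by all the cytosolic enzymes listed. Among the pathway's own dehydrogenase genes Pgd was called lower and G6pdx was not called. The Pgd call was lost with DESeq2 (adjusted p = 0.153) and under other settings.

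**Figure D4:**
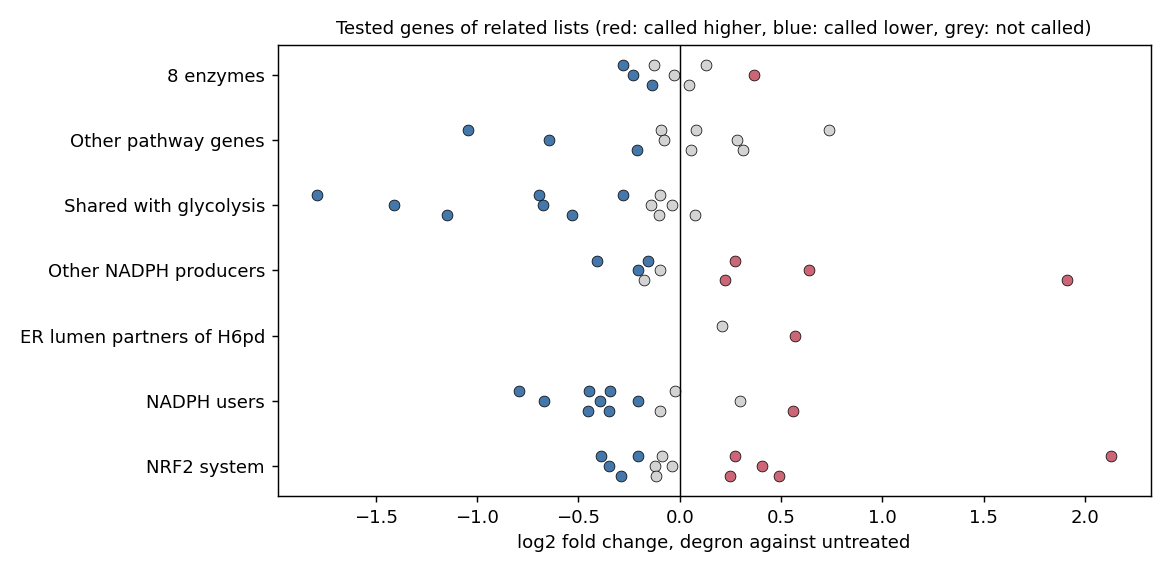
Log2 fold changes (horizontal axis) of the 8 enzymes and of the tested genes of 6 related lists, 1 point a gene, red for called higher, blue for called lower and grey for not called; vertical offsets within a row only separate points. The 8 enzymes lie between -0.28 and 0.37, whereas 7 of 12 tested genes shared with glycolysis are called lower, down to -1.79 for Aldoc.

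For each enzyme that was called, the tested gene with the most similar profile was found, by the distance between the log2 CPM values of the 4 libraries, each centred on its mean, among 9474 genes of at least 10 CPM. It was Plxnb2 for H6pd (log2 fold change 0.35), Ppm1g for Tkt (-0.28), Stmn2 for Taldo1 (-0.22) and Eif6 for Pgd (-0.13, itself not called, edgeR adjusted p = 0.0532). The distance rests on 4 libraries and says nothing of shared function.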

How the data were processed

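RNA was extracted with TRIzol from ZBTB21-degron mESCs and made into poly(A) libraries by the sample labels. The study's methods name a different kit. The authors trimmed reads (cutadapt 2.6), mapped them to mm10 (STAR 2.7.6a), kept primary alignments without PCR duplicates, and deposited unnormalized gene counts from featureCounts 1.6.3 on GENCODE vM25. Without molecular identifiers, duplicate removal may cost abundant genes reads. Library totals were 8344408 to 10604451 counts, which limits precision for genes such as Rpia.

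Symbols, coordinates and exonic lengths were taken from GENCODE vM21 (GRCm38, the build of mm10), which matched 55141 of 55401 IDs without versions; where a symbol had 2 IDs (Aldoa, Nnt), the ID with more counts was used. Columns were matched to samples by condition and replicate number. The test was edgeR's (4.0.16, under R 4.3.3) quasi-likelihood test after filterByExpr and TMM scaling, with group as the sole term, p adjusted by Benjamini-Hochberg across tested genes and called under 0.05. The SE is the log2 fold change divided by the square root of F, and 95% intervals use the total degrees of freedom of the fit. Alternatives were DESeq2 1.42.0, limma-voom (limma 3.58.1), RLE scaling, library sizes alone, omission or tightening of the low-count filter, protein-coding genes alone, the replicate block and each library left out.

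All 8 enzymes were named; from each list, up to 4 called genes in order of p. Genes named beyond this were chosen with their values known. The members and lists were chosen with earlier results of these data known. Promoter windows are those of RefSeq on GRCm38.p6, and all 8 enzymes matched by symbol.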

Additional observations from a re-analysis of the deposited data

How the results depend on the processing

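Of 96 values of the 8 enzymes under 12 other settings, 85 kept their direction and their side of the threshold. H6pd ranged from 0.33 to 0.40 and Tkt from -0.30 to -0.25 on the log2 scale, and both stayed called. Pgd was no longer called under DESeq2 (-0.14, adjusted p = 0.153), unscaled library sizes (-0.11 and 0.0866), no low-count filter (-0.13 and 0.0578), or without untreated replicate 2 or either degron replicate. Taldo1 lost its call without degron replicate 1. Directions turned only for genes that were not called: Rpe was 0.0033 with library sizes alone, and with 1 library left out Rpe ranged from -0.0734 to 0.0116 and G6pdx from -0.00976 to 0.0895. Leaving out 1 library gave 2 to 4 called members and 4524 to 5565 called genes overall. With degron replicate 1 left out, the members called were Tkt and H6pd.

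DESeq2 called 2924 genes, against 6093 with edgeR (1440 higher and 1484 lower, against 3087 and 3006). The cause was not tested. The replicate block gave 6645 called genes and the same count of 4 members. Their edgeR adjusted p was smaller with it, as for Taldo1 (7.13e-09) and Pgd (0.00114). Deviations of same-numbered libraries from their group means correlated with r = 0.04 across all tested genes. The labels do not say whether same-numbered libraries were paired, and this correlation over all genes cannot settle it. The oxidative to non-oxidative log2 ratio rose by 0.26 with reads per kilobase also. Depth limits Rpia, whose 77 to 111 counts leave a wide interval.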

Other observations

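Most enzymes in a list of those that spend NADPH were called lower. Of 12 tested genes 1 was higher and 8 lower, with a median log2 fold change of -0.35, beside 22.2% higher and 21.6% lower over all tested genes. Rrm2, the small subunit of ribonucleotide reductase, fell from a mean of 470 ± 14.1 to 295 ± 2.65 CPM (SD, n = 2), and Rrm1, the large subunit, fell by 0.45 on the log2 scale (edgeR adjusted p = 6.12e-11). Dhcr7, the last enzyme of cholesterol synthesis, fell by 0.79. Aldh18a1, the first enzyme of proline synthesis, was the member that rose, from a mean of 164 ± 0.372 to 242 ± 4.26 CPM (SD, n = 2), or by 0.56 on the log2 scale. The falls of cholesterol and replication genes were known from earlier results of these data.

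Genes of the NRF2 system, a transcription factor of the oxidative stress response that is known to act on pentose phosphate genes, were taken from a list of 13. All 13 were tested, and 5 were higher and 4 lower, beside 22.2% higher and 21.6% lower over all tested genes, with a median log2 fold change of -0.09. Nfe2l2, which encodes NRF2, rose from a mean of 96.3 ± 2.12 to 135 ± 2.27 CPM (SD, n = 2), Hmox1, heme oxygenase, rose by 0.40 on the log2 scale and Slc7a11, the cystine transporter, had 11 and 11 counts in the untreated and 40 and 46 counts in the degron libraries. Txn1, thioredoxin, fell by 0.39. Nqo1, a much used NRF2 target, was not called (-0.12, edgeR adjusted p = 0.103). The list shares Txnrd1 and Gsr with the genes that spend NADPH and Me1 with those that make it.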
